A study of Homo sapiens with 12 samples.

Results

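TTR cells, a resistant derivative of MDA-MB-231 obtained by treatment, were compared with parental MDA-MB-231 cells while both were under TRAIL. MDA-MB-231 is an established line from a human breast cancer of the triple-negative type. The comparison used 6 of the 12 arrays of the series, 3 of TTR cells and 3 of parental cells, all given TRAIL at 100 ng per ml for 2 hours. The members described are the 18417 genes that the array annotation names singly, out of 33252 features, with the feature of the highest mean level kept where a gene had several. The other 6 arrays, 3 of untreated parental and 3 of untreated TTR cells, gave the same line difference without TRAIL, and share no array with the comparison under TRAIL. The labels give neither the agent nor the length of the selection, and do not say whether TTR is 1 clone. A tag in the sample descriptions takes one form in all parental samples and another in all TTR samples, and it cannot be told apart from the line. Nothing in the labels says that the replicates came from separate cultures, so p-values measure the spread between these samples, which may be technical.

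TRAIL is a ligand of the tumour necrosis factor family. Its death receptors TNFRSF10A and TNFRSF10B recruit the adaptor FADD and the initiator caspases CASP8 and CASP10, while CFLAR competes with the caspases in that complex. The same receptors can also activate NF-kB and the MAP kinases, which induce chemokines, cytokines and immediate-early transcription factors within hours. Decoy receptors such as TNFRSF10D and TNFRSF11B bind the ligand without passing on a death signal.

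Levels are log2 values, differences are TTR minus parental on that scale, n = 3 arrays per group, and ± precedes the standard error of limma's fit over all 12 arrays. A gene is called where limma's p, adjusted by Benjamini-Hochberg over the 18417 genes, is under 0.05. The arrays of TRAIL-treated parental cells had a median over all features of 4.58 to 4.61, against 4.38 to 4.40 in TRAIL-treated TTR cells and 4.24 to 4.31 in the untreated arrays. Their lower quartiles were higher (2.98 to 3.05 against 2.87 to 2.88 in TTR cells with TRAIL) and their upper quartiles lower (6.545 to 6.593 against 6.692 to 6.728). Array values do not keep the total RNA of a cell, so fewer cells and less RNA per cell cannot be told apart. The 15 measured markers that define MDA-MB-231 cells averaged 7.29 to 7.37 per parental and 7.65 to 7.73 per TTR array with TRAIL. Of these, 6 were called higher in TTR cells and 2 lower (53.3%, against 54.4% of all genes), or 11 and 0 after median centring. MSN (1.32), CD44 (1.16) and CAV1 (0.79) were among the higher, and PGR (−0.33) and CDH1 (−0.31) were the lower. The mesenchymal filament VIM was at 11.68 to 11.86 in parental and 11.54 to 11.73 in TTR arrays with TRAIL. The oestrogen receptor ESR1 was at 3.42 to 3.87 over both. The 12 luminal breast markers averaged 5.41 to 5.54 per parental array and 5.13 to 5.22 per TTR array, and 7 of them were called lower in TTR cells, 2 after median centring. The 12 blood cell markers averaged 3.94 to 4.14 and 3.78 to 3.82, with 4 called lower, and the leukocyte gene PTPRC was at 2.22 to 2.54. The 13 fibroblast and endothelial markers averaged 3.41 to 3.51 and 3.28 to 3.32, with 1 called higher and 3 lower. Beside these marker counts, 28.0% of all genes were called higher and 26.4% lower. No detection measure was used here, so levels in this low range may be background. The part of these markers in the results below was not tested.

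With TRAIL, 10017 of the 18417 genes (54.4%) were called between the lines, 5164 higher in TTR cells (28.0%) and 4853 lower (26.4%). By at least 2-fold, 1924 were higher and 506 lower. The lower side held the largest single differences: SNAI1 was 13.7-fold lower, while the largest named difference on the higher side, MSMO1, was 6.76-fold. Differences depended on the level of the gene. Among the 6139 genes of highest mean level, the upper of 3 equal groups, 3645 were called higher and 1054 lower, with a median difference of 0.48. The middle group had 1388 higher and 2593 lower (median −0.20), and the lowest group 131 higher and 1206 lower (median −0.13). The median over all genes was −0.07. Centring each array on its median moved the split to 6839 higher and 2391 lower (74.1% higher, against 51.6% as deposited), and a further quantile normalization gave 5117 and 3582. In the highest group the median was 0.68 after centring and 0.32 after quantile normalization, so well-expressed genes stood higher in TTR cells on each scale. Without TRAIL the same group had a median of 0.00, with 338 genes higher and 372 lower.

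**Figure D1:**
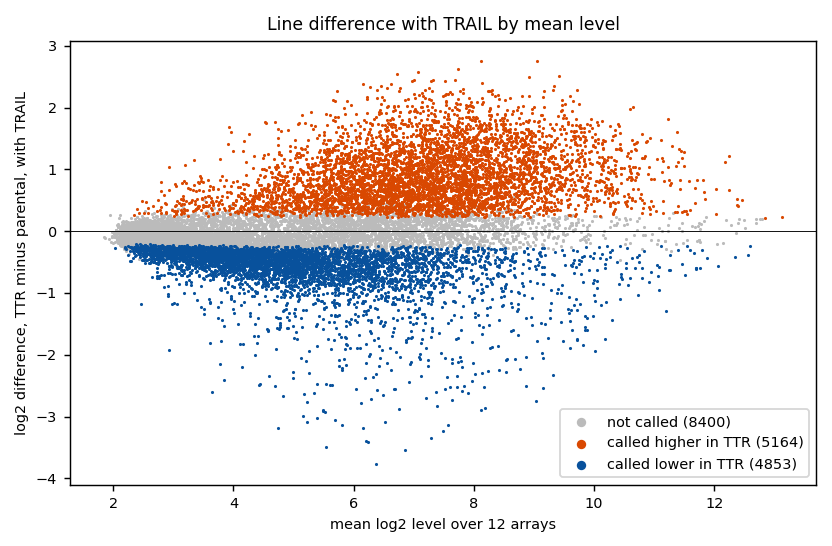
Each point is 1 of 18417 genes, with its mean log2 level over 12 arrays on the x axis and the log2 difference of TTR minus parental cells with TRAIL on the y axis. The 5164 genes called higher lie mostly at mid to high levels. The 4853 called lower spread over all levels, with a long tail down to −3.77. The groups of lowest, middle and highest level hold 1206, 2593 and 1054 of them.

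The 15 genes furthest below parental levels were ranked with small RNAs, histones, olfactory receptors and unnamed loci left out. Of these 15, SNAI1 and ID2 had the largest differences. SNAI1, a repressor of epithelial genes, was at 9.94, 10.34 and 10.38 in parental cells with TRAIL and at 6.11, 6.62 and 6.61 in TTR cells (−3.77 ± 0.16, adjusted p = 1.62e-10, limma). ID2, an inhibitor of helix-loop-helix factors, was at 10.43, 10.68 and 10.83 against 6.59, 7.05 and 7.69 (−3.54 ± 0.30). In both genes every TTR array lay at least 2 log2 units below every parental array, and without TRAIL both lines were between 4.03 and 5.62. The growth arrest gene GADD45G stood at 8.21, 8.51 and 9.01 in parental cells and 4.98, 5.02 and 5.27 in TTR cells (−3.49 ± 0.18). The chaperone HSPA2 was at 8.88, 9.13 and 9.38 against 5.63, 5.89 and 5.70 (−3.39 ± 0.12, adjusted p = 6.21e-11, limma). Without TRAIL these 2 genes differed between the lines by 0.01 and 0.12, and neither was called. RGS2, which turns off G protein signals, was at 11.07, 11.40 and 11.53 in parental and 7.73, 8.16 and 8.70 in TTR cells (−3.14 ± 0.20), the groups being widely apart. Its relative RGS16 stood at −2.92 ± 0.13, the small GTPase genes RRAD and RASD1 at −3.10 ± 0.13 and −2.74 ± 0.14, and the cytokine signalling inhibitor SOCS1 at −2.78 ± 0.13. PPP1R3C, which targets a phosphatase to glycogen, was at −3.19 ± 0.13. The others were RNF151 (−3.02), FBXO48 (−2.91), ANKRD37 (−2.83), MAGEB2 (−2.89) and MTND2P28 (−3.24), a copy of a mitochondrial gene whose signal is uncertain for that reason. In 14 of the 15 genes the change from untreated to TRAIL in parental cells was above 0, and MAGEB2, a cancer-testis antigen, was the exception. MAGEB2 was at 6.37 to 6.72 in parental cells with TRAIL and 7.93 to 8.17 without, against 3.55 to 3.92 in all 6 TTR arrays.

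Of the 15 genes furthest above parental levels, ranked with the same groups left out, MSMO1 and HACD3 had the largest differences. MSMO1, a sterol oxidase of cholesterol synthesis, was at 6.98, 6.35 and 7.33 in parental cells with TRAIL and 9.72, 9.49 and 9.71 in TTR cells (2.76 ± 0.17, 6.76-fold, adjusted p = 2.87e-09, limma). HACD3, of fatty acid elongation, was at 6.10, 5.07 and 6.23 against 8.58, 8.44 and 8.64 (2.75 ± 0.21). The second parental array was the lowest in both genes, and no TTR array came within 2 log2 units of any parental one. LPCAT2, which remodels membrane phospholipids, stood at 2.58 ± 0.15 and the matrix protein gene EFEMP1 at 2.54 ± 0.17. PAPSS2, which makes the activated sulfate donor, was at 6.31, 5.56 and 6.13 in parental and 8.63, 8.52 and 8.21 in TTR cells (2.45 ± 0.17, 5.47-fold). The iron reductase CYBRD1 (2.50 ± 0.17), the zinc importer SLC39A10 (2.43 ± 0.16), the aldehyde oxidase AOX1 (2.44 ± 0.15), the RNA-binding protein RBMS1 (2.44 ± 0.12), the Polycomb component PCGF6 (2.43 ± 0.26) and the nuclear receptor corepressor NRIP1 (2.38 ± 0.20) followed. The lowest RBMS1 difference over 20 alternatives of the processing was 1.42, and RBMS1 stayed called in each. The remaining genes were RAP1GDS1 (2.63), ARL6IP5 (2.51), EEIG2 (2.43) and STARD3NL (2.41). In contrast to the lower set, 10 of these 15 were also called higher in TTR cells without TRAIL, by 0.56 to 1.25, against 3.64% of all genes. Of the 15 lower genes 2 were also called lower without TRAIL (3.47% of all genes), MAGEB2 and ANKRD37. For all 15 higher genes the change from untreated to TRAIL in parental cells was below 0.

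**Figure D2:**
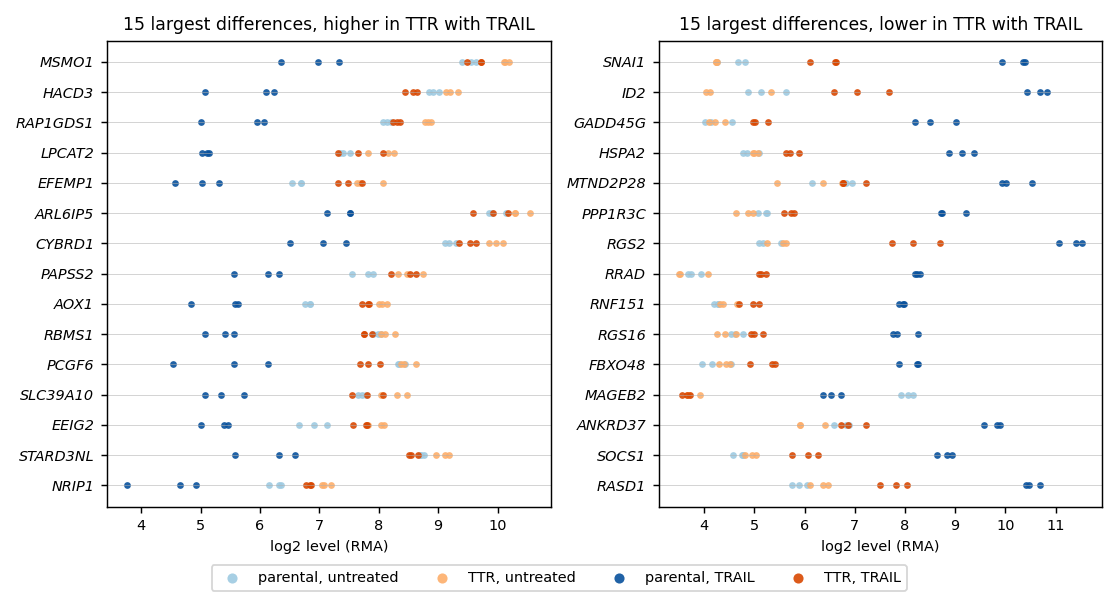
Each point is 1 array, with its log2 level on the x axis and genes as rows, for the 15 genes furthest above (left) and the 15 furthest below (right) parental levels in TTR cells with TRAIL. Small RNAs, histones, olfactory receptors and unnamed loci were left out. On the right, dark blue points (parental, TRAIL) stand to the right of the other 3 groups except for MAGEB2, as for SNAI1 at 9.94 to 10.38, and on the left they stand to the left of them, as for MSMO1 at 6.35 to 7.33.

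Immediate-early genes, the transcription factors and regulators that signalling switches on within minutes, were lower in TTR cells as a group. Of 33 measured, 30 were called lower, 1 higher and 2 did not pass, against 26.4% and 28.0% of all genes called lower and higher, and their median was −1.47 (−1.27 after median centring, −1.67 after quantile normalization). FOSB, an AP-1 subunit, was at 10.08, 10.22 and 10.40 in parental and 7.45, 7.75 and 7.56 in TTR cells (−2.65 ± 0.13, 6.28-fold). IER2 was at 10.42, 10.42 and 10.20 against 8.14, 8.32 and 8.27 (−2.10 ± 0.11), and the AP-1 subunit JUNB at 11.06, 11.15 and 10.94 against 9.13, 9.26 and 9.19 (−1.86 ± 0.10). The groups did not overlap in any of these, and TTR levels were within a narrow range. Chosen after their values were seen, FOS stood at −1.75 ± 0.14 and EGR1 at −0.99 ± 0.12. The member called higher, also named after the values were seen, was FOSL2 (0.44 ± 0.10), and it lost its call after quantile normalization (0.20, adjusted p = 0.0942, limma). The 2 that did not pass were BHLHE40 (0.01) and KLF6 (0.33 ± 0.14, adjusted p = 0.0513, limma), and KLF6 passed as higher in several alternatives, among them median centring (0.53, 0.00361) and the fit without parental TRAIL array 1 (0.44, 0.0194). Without TRAIL 1 immediate-early gene was called higher and 3 lower, with a median of −0.06.

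Feedback genes that dampen these signals moved in both directions, with 28.0% of all genes called higher and 26.4% lower. Of 12 genes of the SOCS and GADD45 families, 8 were called lower and 3 higher (median −0.52). GADD45B, a stress sensor, was at 10.52, 10.72 and 10.52 in parental and 8.28, 8.49 and 8.21 in TTR cells (−2.26 ± 0.11), and SOCS3 stood at −1.98 ± 0.11. The 3 called higher, named after their values were seen, were SOCS2 (1.12 ± 0.09), SOCS5 (0.83) and SOCS6 (0.45). Of 16 MAP kinase phosphatases and Sprouty genes, 6 were called higher and 8 lower. The phosphatase DUSP14 (1.52 ± 0.11), SPRED1 (1.24 ± 0.12) and SPRY2 (0.89 ± 0.09) were higher in TTR cells, and the nuclear phosphatase DUSP2 was lower (−1.26 ± 0.13). The median of this list was −0.15 as deposited and 0.05 after median centring, so it has no settled direction.

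NF-kB, a family of dimeric factors that bind short kB sites, drives much of the inflammatory part of the TRAIL response. Among all genes 28.0% were called higher in TTR cells and 26.4% lower. Of 29 measured NF-kB target genes, 6 were called higher and 13 lower in TTR cells (median −0.23, −0.03 after centring, where 9 and 9 were called). Of 21 chemokines and inflammatory cytokines 2 were higher and 12 lower (median −0.39, −0.19 after centring, −0.24 after quantile normalization). The promoters of the following 8 genes were picked, after their values were seen, as examples of chemokine, cytokine and NF-kB subunit genes on both sides of the comparison, with SOCS1 and HSPA2 from the 15 lowest, that held the kB consensus in the 250 bases before the RefSeq start (GRCh38.p14). Other called genes such as CYLD, CFLAR, GADD45B, FBXO48, ID2, CXCL1 and NFKBIA held it too and are not shown. Each stretch is written 5′ to 3′ on the gene's strand, with capitals marking the kB consensus.
CCL20, chr2:227813743-227813792, plus strand: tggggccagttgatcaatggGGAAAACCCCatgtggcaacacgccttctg
CXCL10, chr4:76023590-76023694, minus strand: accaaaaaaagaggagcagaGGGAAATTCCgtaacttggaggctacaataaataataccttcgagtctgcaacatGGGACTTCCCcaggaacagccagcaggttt
CXCL3, chr4:74038738-74038788, minus strand: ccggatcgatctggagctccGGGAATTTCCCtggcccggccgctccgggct
IL6, chr7:22727107-22727156, plus strand: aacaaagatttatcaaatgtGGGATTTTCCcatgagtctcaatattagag
NFKB1, chr4:102501290-102501339, plus strand: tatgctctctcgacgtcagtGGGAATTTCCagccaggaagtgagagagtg
NFKB2 (1 of its start sites), chr10:102394451-102394529, plus strand: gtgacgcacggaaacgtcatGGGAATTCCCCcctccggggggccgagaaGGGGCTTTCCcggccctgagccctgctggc
SOCS1, chr16:11256242-11256291, minus strand: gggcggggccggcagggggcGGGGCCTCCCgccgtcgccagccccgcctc
HSPA2, chr14:64540671-64540720, plus strand: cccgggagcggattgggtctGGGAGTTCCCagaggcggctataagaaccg

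The kB consensus, searched on both strands, was found in 15 of 25 NF-kB target genes with a RefSeq promoter (60.0%) and in 10 of 15 chemokine and cytokine genes (66.7%). It was found in 14.5% of the 14239 genes tested that had a promoter. A gene with several start sites was counted where any of them matched. These lists were drawn up as known NF-kB targets, so the excess describes the lists. Of the 11 largest lower genes with a promoter 4 held it (36.4%), and of the 11 largest higher genes 2 (18.2%). Genes with these letters lay on both sides of the comparison. A match describes letters and not binding. Other motifs searched in the same window were the AP-1 motif TGANTCA, found in 7.06% of the 14239 genes, the cyclic AMP element TGACGTCA (2.83%) and the CArG box of serum response factor (1.61%). Among 24 immediate-early genes with a promoter they were found in 0, 2 and 2.

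CCL20, a chemokine for lymphocytes and dendritic cells, was at 7.92, 7.10 and 6.69 in parental cells with TRAIL and 4.71, 5.30 and 4.70 in TTR cells (−2.34 ± 0.24, 5.05-fold). CXCL3, a neutrophil chemokine, was at 7.94, 7.64 and 7.27 against 5.81, 6.15 and 5.59 (−1.77 ± 0.18), and CXCL10, which attracts T cells, at 6.15, 5.79 and 5.72 against 4.0, 4.10 and 4.09 (−1.82 ± 0.17). The parental arrays spread more widely than the TTR arrays in CCL20 but did not overlap them in any of the 3. The 2 members called higher were IL6 and IL1B, of which IL1B was named after its value was seen (1.24 ± 0.24). IL6, an inflammatory cytokine, was at 6.97, 7.0 and 7.17 in parental and 7.95, 8.24 and 8.01 in TTR cells (1.02 ± 0.13). Without TRAIL the IL6 difference was 0.94 (adjusted p = 3.80e-04, limma), and the difference between the 2 settings did not pass (0.09, adjusted p = 0.755, limma). Also chosen after their values were seen, CXCL1 was at −1.22 ± 0.17 and CXCL8 at −0.69 ± 0.17.

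The NF-kB subunits themselves went opposite ways. NFKB1 was at 6.64, 6.26 and 6.26 in parental and 7.83, 7.6 and 7.56 in TTR cells (1.28 ± 0.13, 2.43-fold), and NFKB2 at 8.35, 8.32 and 8.21 against 7.05, 6.80 and 7.11 (−1.31 ± 0.12, 2.47-fold). CYLD, a deubiquitinase that restrains the pathway, was higher (1.28 ± 0.10), as was BIRC2, a ubiquitin ligase of the receptor complex (1.26 ± 0.11). Without TRAIL, CYLD and BIRC2 were also called higher (0.39 and 0.58) and NFKB2 lower (−0.42), while NFKB1 was at −0.36 and did not pass (adjusted p = 0.12, limma). Chosen after their values were seen, the inhibitor NFKBIA was lower (−0.77 ± 0.11). The deubiquitinase TNFAIP3 was at 0.42 ± 0.20 and did not pass (adjusted p = 0.0809, limma), and passed after median centring (0.62, adjusted p = 0.0142, limma), without parental TRAIL array 1 (0.65, 0.00826) or TTR TRAIL array 3 (0.60, 0.022), and with a replicate block in the 2 groups alone (0.42, 0.0351).

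Of the 11 measured genes for TRAIL, its receptors and the signalling complex, 3 were called higher and 4 lower (63.6%, against 54.4% of all genes called). The death receptor TNFRSF10A was at 6.07, 6.04 and 6.34 in parental and 5.30, 5.06 and 5.06 in TTR cells with TRAIL (−1.01 ± 0.11, 2.01-fold, adjusted p = 1.50e-06, limma). TNFRSF10B was at 7.84, 8.04 and 7.69 against 7.31, 7.36 and 7.03 (−0.63 ± 0.13, 1.54-fold). In both, all TTR arrays lay below all parental ones. Without TRAIL the gaps were −1.47 and −1.05. The gap of TNFRSF10A was smaller with TRAIL by 0.46 (adjusted p = 0.0339, limma), and that of TNFRSF10B by 0.43, which did not pass (0.0735). The decoy receptor TNFRSF10D stood at −0.39 ± 0.11, or −0.18 after median centring, where it did not pass (adjusted p = 0.158, limma). The decoy receptor TNFRSF11B was at 5.48, 5.39 and 5.22 in parental and 5.64, 5.42 and 5.66 in TTR cells, which overlap (0.21, adjusted p = 0.199, limma). It passed after median centring (0.41, adjusted p = 0.0138, limma), and without TRAIL it was called lower in TTR cells (−0.47).

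Within the signalling complex CFLAR was higher, at 5.08, 5.15 and 5.12 in parental and 5.86, 5.88 and 5.84 in TTR cells (0.75 ± 0.09, adjusted p = 1.71e-06, limma). The adaptor TRADD was at 5.84, 5.93 and 5.38 against 6.36, 6.43 and 6.35 (0.66 ± 0.15). The calls of FADD and CASP8 were fragile. FADD (0.32 ± 0.12, adjusted p = 0.0342, limma) lost its call after quantile normalization (0.08, 0.626), with only the 2 groups fitted (0.0584), and without parental TRAIL array 3 (0.17, 0.195) or TTR TRAIL array 1, 2 or 3 (0.0731, 0.0855 and 0.0617). CASP8 (−0.27 ± 0.10, adjusted p = 0.0386, limma) lost it after median centring (−0.06, 0.633), with array weights (−0.23, 0.0742), in the 2 groups alone (0.0746, or 0.0647 with a replicate block), and without parental TRAIL array 2 (−0.16, 0.177) or TTR TRAIL array 1, 2 or 3 (0.0776, 0.0526 and 0.12). By limma 3 more did not pass: CASP10 (0.27, adjusted p = 0.184), the related receptor FAS (−0.07, 0.583) and the TRAIL gene itself, TNFSF10 (−0.07, 0.755). CASP10 passed after median centring (0.47, 0.0223), after quantile normalization (0.42, 0.0476) and without TTR TRAIL array 3 (0.51, 0.00397).

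**Figure D3:**
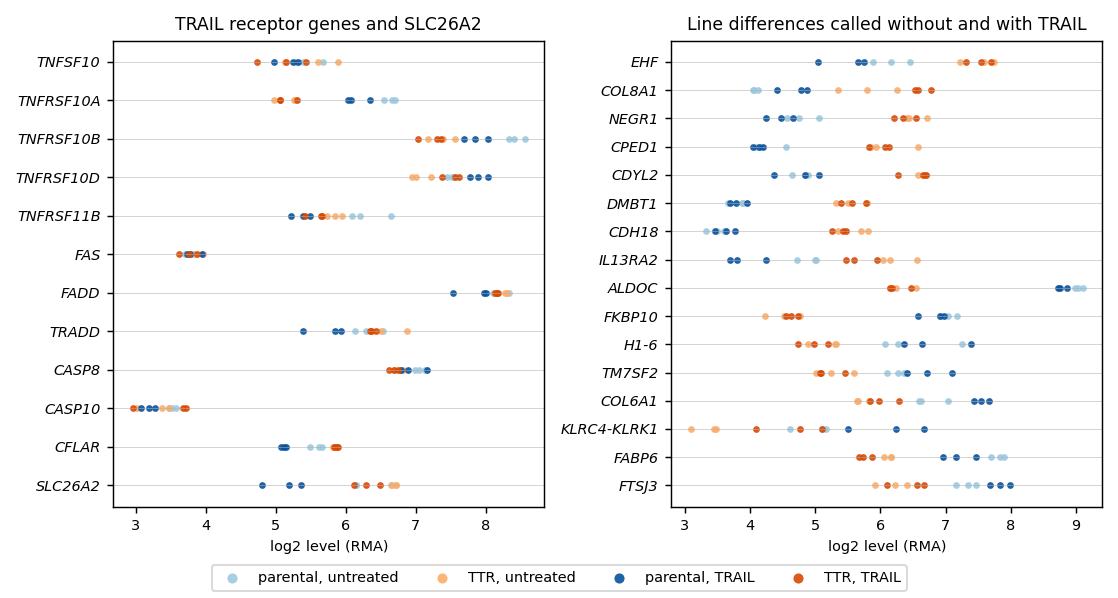
Each point is 1 array, with its log2 level on the x axis and genes as rows: the TRAIL ligand, receptor and complex genes with SLC26A2 on the left, and the largest line differences called with and without TRAIL on the right. TNFRSF10A is lower in TTR cells in both settings (5.06 to 5.30 with TRAIL), and on the right the 2 TTR groups lie together, apart from the 2 parental groups.

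Of 11 caspase pathway genes 5 were called higher and 1 lower (median 0.20, 0.40 after centring). The effector caspase CASP6 was at 4.85, 4.16 and 4.62 in parental and 6.32, 6.19 and 6.29 in TTR cells (1.72 ± 0.15, 3.29-fold), and the apoptosome scaffold APAF1 stood at 1.15 ± 0.11. CASP2 (0.77 ± 0.13) and CASP4 (0.63 ± 0.10) were also higher. CASP9 was named after its value was seen (0.40 ± 0.16, adjusted p = 0.0472, limma). Its call was lost without parental TRAIL array 1 or 3 (0.084 and 0.188), TTR TRAIL array 2 (0.223), parental untreated array 1 or 3 (0.0583 and 0.0508) or TTR untreated array 2 (0.056). The gene called lower, named likewise, was cytochrome c, CYCS (−0.59 ± 0.15), which no longer passed after centring (−0.38, adjusted p = 0.0513, limma). Of 20 BCL2 family genes 7 were higher and 6 lower, shares near the 28.0% and 26.4% of all genes. The mitophagy-linked members BNIP3L (1.36 ± 0.09) and BNIP3 (1.02 ± 0.12) were higher in TTR cells. The death-promoting BH3-only genes PMAIP1, at 10.32, 10.22 and 10.58 in parental and 9.0, 9.01 and 9.26 in TTR cells (−1.28 ± 0.12), and BBC3 (−1.11 ± 0.13) were lower. Of 9 inhibitors of apoptosis proteins and their antagonists 3 were higher and 4 lower. BIRC5, or survivin (0.64 ± 0.09), and the antagonists HTRA2 (0.95 ± 0.15) and DIABLO (0.55 ± 0.11) were higher. The 4 lower were BIRC6 (−0.38) and, named after their values were seen, NAIP (−0.46), BIRC7 (−0.34) and SEPTIN4 (−0.29), and all 4 lost their call after median centring (adjusted p = 0.132, 0.0981, 0.245 and 0.539, limma). SEPTIN4 also lost it without parental TRAIL array 2 or 3 (0.134 and 0.136) or TTR TRAIL array 1 or 2 (0.154 and 0.0969).

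SLC26A2, the sulfate transporter in the title of the series, was at 4.80, 5.36 and 5.19 in parental cells with TRAIL and 6.12, 6.28 and 6.49 in TTR cells (1.18 ± 0.16, 2.27-fold, adjusted p = 7.25e-06, limma). The TTR arrays lay above all parental ones. Without TRAIL the difference was 0.38 and did not pass (adjusted p = 0.189, limma), and the 2 differences differed by 0.81 (adjusted p = 0.0084, limma). From untreated to TRAIL the transporter changed by −1.20 in parental and −0.40 in TTR cells. Of 11 genes of sulfate transport and activation 6 were called higher and 2 lower in TTR cells with TRAIL (median 0.51). The shares of all genes were 28.0% higher and 26.4% lower. Besides PAPSS2, the other synthase of the sulfate donor, PAPSS1 (1.24 ± 0.14), and its Golgi carrier SLC35B2 (1.02 ± 0.10) were higher. The 2 called lower, named after their values were seen, were the exchangers SLC26A1 (−0.59 ± 0.11) and SLC26A6 (−0.25 ± 0.09). The SLC26A6 call was lost after median centring (−0.04, adjusted p = 0.706, limma), in the 2 groups alone (0.0554, or 0.078 with a replicate block), and without parental TRAIL array 1 or 2 (0.0568 and 0.0547) or TTR TRAIL array 1 or 2 (0.0722 and 0.0929).

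The enzymes that use sulfate to build heparan and chondroitin sulfate were split, with 8 of 40 called higher and 13 lower. Their median was −0.04 as deposited and 0.16 after centring. In this list 52.5% were called, near the 54.4% of all genes (28.0% higher and 26.4% lower). GLCE, the epimerase of heparan sulfate, was at 5.43, 4.99 and 5.23 in parental and 7.18, 7.18 and 7.36 in TTR cells (2.02 ± 0.12), and the sulfotransferase HS2ST1 stood at 1.37 ± 0.10 and the dermatan epimerase DSE at 1.13 ± 0.11. The 6-O-sulfotransferase HS6ST1 was at 8.42, 8.49 and 8.10 against 6.46, 6.63 and 6.62 (−1.77 ± 0.11). Thus both signs occurred among enzymes of 1 polymer. Enzymes of O-glycosylation, which also modify death receptors, were called higher in 9 of 17 cases and lower in 1 (median 0.53). C1GALT1, which extends the first sugar, stood at 2.02 ± 0.15, and GALNT1, GALNT7 and GALNT5, which attach it, at 1.85 ± 0.14, 1.73 ± 0.14 and 1.72 ± 0.14. The gene called lower was the fucosyltransferase FUT6 (−0.56 ± 0.14), named after its value was seen.

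Most measured genes of the citric acid cycle, the respiratory chain and cholesterol synthesis were called higher in TTR cells with TRAIL. These lists lie mainly in the group of highest level, where 59.4% of all genes were called higher. In that group 17 of 18 citric acid cycle enzymes were called higher (94.4%), 27 of 34 respiratory chain subunits (79.4%), 14 of 16 cholesterol genes (87.5%) and 12 of 15 fatty acid genes (80.0%). Of 18 citric acid cycle enzymes 17 were called higher and every member lay above 0, with differences from 0.14 to 2.20 and a median of 1.36. IDH3A, a subunit of isocitrate dehydrogenase, was at 7.85, 7.32 and 7.80 in parental and 9.93, 9.81 and 9.82 in TTR cells (2.20 ± 0.13, 4.58-fold). SDHC of succinate dehydrogenase stood at 2.12 ± 0.11, SUCLG2 at 1.82 ± 0.09 and ACO1 at 1.54 ± 0.09. The gene that did not pass was SDHD (0.14, adjusted p = 0.304, limma; 0.34 and 0.0156 after median centring), named after its value was seen. Of 37 respiratory chain subunits 30 were higher and 1 lower (median 0.69), among them the complex I subunits NDUFA8 (1.67 ± 0.11) and NDUFA9 (1.57 ± 0.09) and the ATP synthase subunits ATP5F1A (1.53 ± 0.09) and ATP5PB (1.18 ± 0.09). The one called lower was ATP5ME (−0.84 ± 0.13), named likewise. Without TRAIL 3 cycle enzymes were called higher and 1 lower (median 0.11), and 1 respiratory subunit was called higher (median 0.05).

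Of 18 genes of cholesterol synthesis and uptake 14 were called higher and 1 lower (median 1.05). After MSMO1, the desaturase SC5D was at 2.26 ± 0.12, the demethylase CYP51A1 at 1.73 ± 0.10 and the dehydrogenase NSDHL at 1.33 ± 0.10. This list also differed without TRAIL, where 7 were called higher and 1 lower (3.64% and 3.47% of all genes), with a median of 0.37. The gene lower in both settings was TM7SF2, a sterol reductase, at 6.41, 7.10 and 6.71 in parental and 5.07, 5.09 and 5.46 in TTR cells with TRAIL (−1.53 ± 0.17), and −0.97 without. Of 21 genes of fatty acid synthesis and desaturation 13 were higher and 2 lower (median 0.69, and −0.03 without TRAIL). The elongation genes ELOVL7 (1.84 ± 0.10), HSD17B12 (1.62 ± 0.11), ELOVL1 (1.62 ± 0.12) and ELOVL5 (1.55 ± 0.11) were higher. The 2 called lower, named after their values were seen, were FASN, the fatty acid synthase (−1.15 ± 0.13), and SREBF1, its transcriptional activator (−0.64 ± 0.10).

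Of 28 hypoxia and glycolysis genes 15 were higher and 6 lower (median 0.39), and of the 25 in the highest level group 56.0% were higher, near the 59.4% of all genes there. The glucose transporter SLC2A1 (1.26 ± 0.09) and phosphoglycerate kinase PGK1 (1.33 ± 0.11) were higher, while the aldolase ALDOC (−2.51 ± 0.12) and the hypoxia-responsive peptide gene ADM (−2.27 ± 0.18) were lower. Without TRAIL ALDOC was at −2.73, and ADM at 0.46, which did not pass (adjusted p = 0.157, limma). Of 20 NRF2 and glutathione genes 11 were higher and 3 lower (median 0.59). Of the 14 in the highest level group 9 were higher (64.3%), near the 59.4% of all genes there. The quinone reductase NQO1 was at 1.64 ± 0.12, the pentose phosphate enzymes PGD and TALDO1 at 1.40 ± 0.11 and 1.34 ± 0.10, and the cystine transporter SLC7A11 at 1.24 ± 0.12. The 3 lower, named after their values were seen, were OSGIN1 (−0.80 ± 0.10), ABCC2 (−0.68 ± 0.13) and GPX2 (−0.38 ± 0.13). GPX2 lost its call after median centring (−0.18, adjusted p = 0.249, limma), after quantile normalization (0.235) and without parental TRAIL array 1 (0.0812) or TTR TRAIL array 2 (0.117). Of 24 genes of GPI anchor synthesis 13 were higher and 3 lower (median 0.43). In the highest level group 9 of 14 were higher, also 64.3% and near the share of all genes there. PIGK, of the transamidase that attaches the anchor, was at 4.52, 4.11 and 4.80 in parental and 6.88, 6.72 and 6.87 in TTR cells (2.35 ± 0.14). PIGB, a mannosyltransferase, was at 4.68, 4.62 and 4.71 against 6.81, 7.01 and 7.03 (2.28 ± 0.11), and DPM1 and PIGN stood at 1.20 ± 0.10 and 1.30 ± 0.11. The 3 lower, named after their values were seen, were PIGM (−0.72), DPM3 (−0.59) and DPM2 (−0.47, or −0.26 and adjusted p = 0.113 by limma after median centring).

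**Figure D4:**
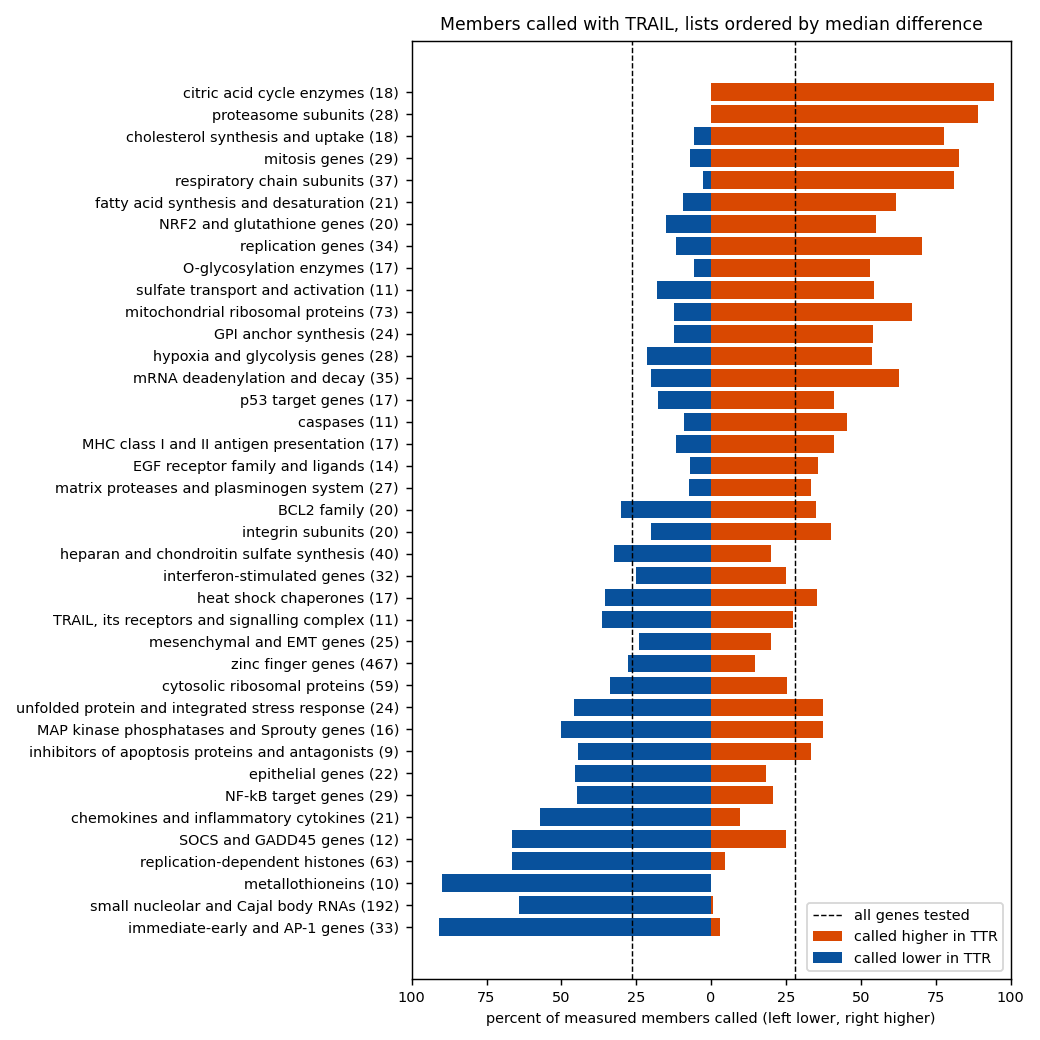
Bars give the percent of measured members of each gene list called higher (right) or lower (left) in TTR cells with TRAIL, with the number measured in brackets, and dashed lines mark the 28.0% and 26.4% of all genes. Citric acid cycle enzymes and proteasome subunits stand at the top with no member called lower, and immediate-early genes, small nucleolar RNAs and metallothioneins at the bottom.

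Most proteasome, replication and mitosis genes were called higher as well. In the group of highest level the share was 25 of 27 for the proteasome (92.6%), 23 of 32 for replication (71.9%) and 24 of 28 for mitosis (85.7%), against 59.4% of all genes there. Of 28 proteasome subunits 25 were called higher and none lay below −0.01 (median 1.08), while without TRAIL the median was −0.02 and 1 was called lower. PSMA6, of the catalytic core, was at 8.92, 8.49 and 8.98 in parental and 10.48, 10.45 and 10.57 in TTR cells (1.70 ± 0.12). The ATPase subunit PSMC2 was at 7.87, 7.44 and 7.81 against 9.31, 9.36 and 9.31 (1.62 ± 0.11), and PSMA4 and PSMD2 stood at 1.56 ± 0.12 and 1.26 ± 0.10. The 3 that did not pass, named after their values were seen, were PSMB4, PSMD4 and PSMC4 (−0.01, 0.00 and 0.20). PSMC4 passed after median centring (0.41, adjusted p = 0.00502, limma) and without parental TRAIL array 1 or TTR TRAIL array 3 (0.29 each, 0.0349 and 0.0486). Of 34 replication genes 24 were higher and 4 lower (median 0.54), with the ribonucleotide reductase RRM1 (1.62 ± 0.13), the helicase subunits GINS2 (1.38 ± 0.11), GINS3 (1.31 ± 0.12) and MCM6 (1.32 ± 0.12) among the higher. The 4 lower, named after their values were seen, were the clamp PCNA (−0.85 ± 0.10), the licensing factor CDT1 (−0.84 ± 0.11) and the polymerase subunits POLD1 (−0.69 ± 0.11) and POLE (−0.65 ± 0.13).

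Of 29 mitosis genes 24 were higher and 2 lower (median 0.85). The checkpoint kinase TTK (1.15 ± 0.09), the kinetochore protein NUF2 (1.17 ± 0.10), the cytokinesis factor ECT2 (1.11 ± 0.10) and cyclin CCNA2 (1.13 ± 0.10) were higher. The 2 lower, named after their values were seen, were CENPF (−0.56 ± 0.20) and UBE2C (−0.42 ± 0.11), and both lost their call after median centring (adjusted p = 0.146 and 0.137, limma). CENPF lost it also without parental TRAIL array 1 (0.0907) or TTR TRAIL array 3 (0.106). The proliferation marker MKI67, likewise chosen after its value was seen, did not pass (−0.31 ± 0.19, adjusted p = 0.172, limma). It passed as lower after quantile normalization (−0.50, 0.0292) and with a replicate block (0.0194 over 12 arrays, 0.0342 in the 2 groups). Of 73 mitochondrial ribosomal protein genes 49 were higher and 9 lower, with a median of 0.51 that is near the 0.48 of all genes of the highest level group. MRPL49 (1.66 ± 0.13), MRPL15 (1.62 ± 0.11), MRPL9 (1.60 ± 0.11) and MRPL44 (1.46 ± 0.10) were among the higher. Of 59 genes of the cytosolic ribosome 15 were higher and 20 lower, with a median of −0.12 (0.08 after centring). That is 59.3% called, against 54.4% of all genes (28.0% higher and 26.4% lower). These genes averaged 10.48 to 10.56 per parental and 10.40 to 10.45 per TTR array with TRAIL. Those levels are in the range of the highest level group, where 59.4% of all genes were called higher. RPL5 stood at 1.22 ± 0.10, and RPL28 (−1.26 ± 0.11), RPL32 (−1.11 ± 0.12) and RPL13 (−0.82 ± 0.12) were lower, though these genes have many near-identical copies and their signals are uncertain.

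Of 35 genes of mRNA deadenylation and decay 22 were higher and 7 lower (median 0.35). For the 31 in the group of highest level the share called higher was 61.3%, near the 59.4% of all genes of that group. The deadenylase subunits CNOT6L (1.42 ± 0.10) and CNOT8 (1.34 ± 0.11) were higher. The antiproliferative adaptor TOB1 was at 10.13, 10.41 and 10.61 in parental and 7.56, 7.91 and 8.14 in TTR cells (−2.51 ± 0.14, 5.71-fold), and the AU-rich element binding protein ZFP36L2 stood at −1.89 ± 0.14.

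Stress genes did not move as 1 group, with 28.0% of all genes called higher and 26.4% lower. Of 10 metallothioneins, which bind zinc and copper, 9 were called lower, and the highest difference was 0.06 (median −0.61). MT1X was at 11.28, 11.46 and 11.28 in parental and 9.38, 9.29 and 9.69 in TTR cells (−1.89 ± 0.11), and MT1M, MT1E and MT3 stood at −2.61 ± 0.28, −0.94 ± 0.10 and −0.80 ± 0.11. The metallothioneins are near-identical copies of one another and their signals are uncertain. MT2A was the one that did not pass (0.06, adjusted p = 0.642, limma; 0.26 and 0.0411 after median centring), named after its value was seen. Of 17 heat shock chaperones 6 were higher and 6 lower, and beside HSPA2 these included HSPA4 (1.30 ± 0.11), HSPB1 (0.68 ± 0.10) and DNAJB1 (−0.63 ± 0.10). Of 24 genes of the unfolded protein and integrated stress response 9 were higher and 11 lower. DNAJC3 (1.96 ± 0.09), PDIA6 (1.66 ± 0.12) and the serine synthesis enzyme PSAT1 (1.45 ± 0.10) were higher, and the factor CEBPB was lower (−1.52 ± 0.11). Of 17 p53 target genes, in a line whose p53 is mutant, 7 were higher and 3 lower. RRM2B (1.47 ± 0.15), TIGAR (1.25 ± 0.12) and CCNG1 (1.16 ± 0.10) were higher and BTG1 lower (−1.59 ± 0.11), as were, named after their values were seen, the cell cycle inhibitor CDKN1A (−0.95 ± 0.13) and PHLDA3 (−0.41 ± 0.15, adjusted p = 0.0357, limma). PHLDA3 lost its call in several alternatives, among them median centring (−0.20, 0.274) and the fits without parental TRAIL array 2 (−0.22, 0.21), TTR TRAIL array 2 (0.182) or TTR TRAIL array 3 (0.0529).

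Lists of cell identity and cell surface genes held members on both sides, with 28.0% of all genes called higher and 26.4% lower. Of 25 mesenchymal genes 5 were higher and 6 lower, or 44.0% called, against 54.4% of all genes. The collagen cross-linker LOX (1.41 ± 0.10) and the receptor AXL (0.84 ± 0.09) were higher, as were, named after their values were seen, TGFBI (1.26 ± 0.28) and the repressors ZEB1 (0.94 ± 0.14) and ZEB2 (0.68 ± 0.17). COL6A1 (−1.51 ± 0.13) and TWIST1 (−0.76 ± 0.09) were lower, and 14 did not pass. Of 22 epithelial genes 4 were higher and 10 lower (7 and 5 after centring). CLDN4 (−1.03 ± 0.11), CLDN3 (−0.88 ± 0.10) and PKP3 (−0.83 ± 0.11) were lower, while the tight junction gene CLDN1 (0.66 ± 0.09) and, named after their values were seen, CLDN7 (1.34 ± 0.20), TJP1 (0.73 ± 0.11) and the keratin KRT8 (0.48 ± 0.15) were higher. KRT8 lost its call without TTR TRAIL array 3 (0.39, adjusted p = 0.0611, limma). CDH1, the epithelial cadherin, was at −0.31 ± 0.10 (adjusted p = 0.0171, limma) and lost its call after median centring (0.433), after quantile normalization (0.254) and without parental TRAIL array 3 (0.0735) or TTR TRAIL array 1 or 2 (0.0596 and 0.0632). Of 20 integrin subunits 8 were higher and 4 lower, with ITGAV at 1.64 ± 0.12, ITGA6 at 0.91 ± 0.12, ITGB1 at 0.68 ± 0.10 and ITGB4 at −1.14 ± 0.16. The other 3 lower, named after their values were seen, were ITGA11 (−0.38), ITGB2 (−0.37) and ITGB7 (−0.33), which all lost their call after median centring (adjusted p = 0.127, 0.277 and 0.354, limma). ITGB2 also lost it without parental TRAIL array 2 (0.0809) or TTR TRAIL array 2 or 3 (0.0836 and 0.0734), and ITGB7 without parental TRAIL array 1 (0.0673). Of 27 genes of matrix proteases and the plasminogen system 9 were higher and 2 lower, and 16 did not pass. The receptor-shedding proteases ADAM9 (1.96 ± 0.15), ADAM10 (1.51 ± 0.14) and ADAM17 (1.08 ± 0.11) and the plasminogen activator PLAT (1.47 ± 0.10) were higher. The 2 lower, named after their values were seen, were MMP9 (−0.53 ± 0.10) and MMP13 (−0.31 ± 0.10). MMP13 lost its call after median centring (adjusted p = 0.401, limma), after quantile normalization (0.164) and without parental TRAIL array 2 (0.0649) or TTR TRAIL array 1 (0.0822).

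Of 14 genes of the EGF receptor family 5 were higher and 1 lower, against 28.0% and 26.4% of all genes. The ligand TGFA stood at 1.29 ± 0.15, the feedback inhibitor ERRFI1 at 0.66 ± 0.10, LRIG1 at 0.58 ± 0.17 and NRG2 at −0.41 ± 0.12. The remaining 2 higher, named after their values were seen, were the ligands EGF (0.29 ± 0.11) and EREG (0.25 ± 0.10), with adjusted p of 0.0411 and 0.0474 by limma. EREG lost its call in the fits without any 1 array other than parental TRAIL array 1 (0.0508 to 0.177), EGF without parental TRAIL array 1 or 2 (0.0742 and 0.138), TTR untreated array 2 (0.051) or TTR TRAIL array 2 or 3 (0.188 and 0.0644), and NRG2 without parental TRAIL array 2 (0.0509) or TTR TRAIL array 2 (0.0629) and after median centring (0.172). Of 17 antigen presentation genes 7 were higher and 2 lower. HLA-DMA (1.51 ± 0.16) and HLA-DPA1 (0.74 ± 0.15), of the class II pathway, were also called higher without TRAIL (1.0 and 0.82), and the peptide-handling genes PSMB9 (0.92 ± 0.12) and TAP1 (0.73 ± 0.16) were higher with it. The 2 lower, named after their values were seen, were HLA-DOA (−0.34) and NLRC5 (−0.33). Both lost their call after median centring (adjusted p = 0.362 and 0.292, limma) and without TTR TRAIL array 2 (0.0851 and 0.0516), and HLA-DOA without TTR TRAIL array 1 (0.0911). Genes of this region are polymorphic and carry several features here. Of 32 interferon-stimulated genes 8 were higher and 8 lower, with IRF7 at −1.92 ± 0.11, IFI44 at −1.08 ± 0.12, ISG15 at −1.0 ± 0.12 and HERC6 at 0.83 ± 0.10. Both shares were near those of all genes.

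Small nucleolar RNAs, which guide the modification of other RNAs, and histone genes leaned to the lower side in TTR cells, with 26.4% of all genes called lower. Of 192 small nucleolar and Cajal body RNAs 123 were called lower and 1 higher, and 68 did not pass, with a median of −0.87 (−0.67 after centring, −0.91 after quantile normalization). SNORD50B stood at −3.34 ± 0.17, SNORD54 at −3.08 ± 0.11, SNORD61 at −3.06 ± 0.14 and SNORD51 at −2.71 ± 0.12. Of 63 replication-dependent histone genes 42 were lower, 3 were higher and 18 did not pass (median −0.53), with H4C9 at −3.19 ± 0.12, H4C8 at −2.89 ± 0.17, H2AC17 at −2.59 ± 0.11 and H2AC11 at −2.24 ± 0.11. The small RNA called higher, named after its value was seen, was SNORA16B (0.37, adjusted p = 0.0367, limma), which lost its call without parental TRAIL array 2 or 3 (0.0534 and 0.138) or TTR TRAIL array 1 or 2 (0.0892 and 0.229). The 3 histone genes called higher, named likewise, were H2BC1 (1.69 ± 0.25), H2AC21 (0.33 ± 0.12) and H1-4 (0.21 ± 0.09). H1-4 lost its call without any 1 of the 12 arrays (adjusted p from 0.0502 to 0.11, limma), and H2AC21 without parental TRAIL array 2 or 3 (0.0684 and 0.0778) or TTR TRAIL array 1 or 3 (0.0594 and 0.0975). Without TRAIL 4 of the small RNAs were called lower and 1 higher, and 2 of the histone genes lower and 1 higher. Both families hold near-identical copies, and many small nucleolar RNAs lie inside host genes, so single values are uncertain. Of 173 microRNA genes 57 were lower and 13 higher (median −0.12, 0.09 after centring), so they have no settled direction. Of 634 long non-coding RNAs 13 were higher and 255 lower (median −0.23, −0.03 after centring, −0.07 after quantile normalization), and of 16900 protein-coding genes 5092 were higher and 4242 lower (median −0.05). Of 467 zinc finger genes 68 were higher and 130 lower, or 127 and 80 after centring. ZNF296 (−1.68 ± 0.12), ZNF121 (−1.51 ± 0.11), ZNF703 (−1.34 ± 0.10) and ZNF550 (−1.22 ± 0.10) were the lower examples of the smallest p.

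The line difference without TRAIL was smaller: 1310 genes (7.11%) were called, 671 higher (3.64%) and 639 lower (3.47%), and 67 and 42 by at least 2-fold. Of these 1310 genes 856 (65.3%) were called in the same direction with TRAIL, 577 higher and 279 lower, which is 8.55% of those called with TRAIL. Of the genes higher without TRAIL 86.0% were also called higher with it, and of those lower 43.7% were also called lower. Over all genes 28.0% were called higher with TRAIL and 26.4% lower. The group of highest level held 338 of the 671 genes higher without TRAIL and 372 of the 639 lower. Of the 6139 genes there, 3645 were called higher with TRAIL (59.4%) and 1054 lower. The part of level in the 86.0% and 43.7% was not tested. The differences of the 18417 genes correlated at r = 0.368 (rho = 0.304) between the 2 settings, as a description over genes, which are not independent replicates. The count without TRAIL fell to 782 without TTR untreated array 2, 807 without parental untreated array 1 and 829 without parental untreated array 2. The shared count was 533, 547 and 580 in the same order.

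In all, 293 genes higher and 211 lower were called in both settings and did not pass in the test of the difference of differences, which does not show that their differences were equal. ALDOC, the aldolase, was at 8.73 to 8.86 in parental and 6.15 to 6.47 in TTR cells with TRAIL, and at 8.98 to 9.10 and 6.14 to 6.55 without. FKBP10, a collagen chaperone, was at −2.18 ± 0.14 with TRAIL and −2.53 without. Neither gene's groups overlapped in either setting. The collagen gene COL6A1 (−1.51 and −1.03), the fatty acid binding protein FABP6 (−1.44 and −1.68), the rRNA methyltransferase FTSJ3 (−1.39 and −1.14), H1-6 (−1.82 and −1.36) and KLRC4-KLRK1, a read-through of neighbouring genes (−1.48 and −1.62), were the other lower ones, with TM7SF2. On the higher side, CDH18, a cadherin, was at 3.77, 3.63 and 3.47 against 5.43, 5.47 and 5.27 with TRAIL (1.76 ± 0.13) and differed by 2.14 without. The transcription factor EHF was at 2.03 ± 0.19 and 1.35, the collagen COL8A1 at 1.93 ± 0.17 and 1.72, and the adhesion molecule NEGR1 at 1.90 ± 0.14 and 1.73. CPED1 (1.88 and 1.85), CDYL2 (1.78 and 1.86), DMBT1 (1.77 and 1.73) and the decoy interleukin receptor IL13RA2 (1.76 and 1.34) completed the list. MMP1, a collagenase chosen after its value was seen, stood at 1.03 ± 0.12 and 1.54.

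**Figure D5:**
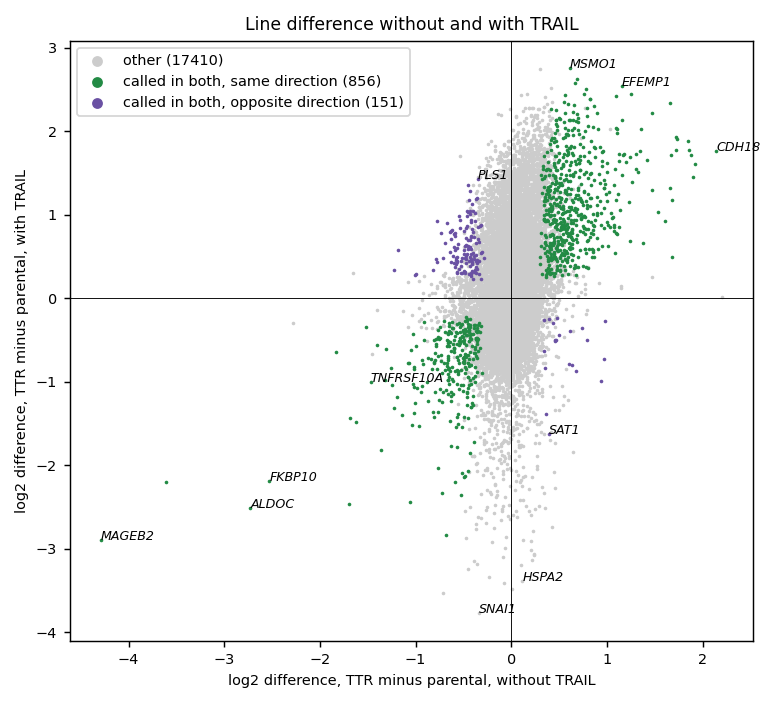
Each point is 1 of 18417 genes, with the log2 difference of TTR minus parental cells without TRAIL on the x axis and with TRAIL on the y axis. Green marks the 856 genes called in both settings in the same direction, purple the 151 called in opposite directions, and most of the grey points lie along the vertical axis.

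The difference of the 2 differences passed for 6852 genes (37.2%), 4224 of them higher with TRAIL than without (22.9%) and 2628 lower (14.3%). After median centring 5410 were higher and 1275 lower (80.9% against 61.6% higher). Small RNAs, histones, olfactory receptors and unnamed loci were left out of the ranking by this difference. The lowest small nucleolar or Cajal body RNA was at −3.32 and the lowest replication-dependent histone gene at −3.33. Of the other genes, the 8 largest on the lower side were SNAI1, GADD45G, HSPA2, RGS2, RNF151, FBXO48, SOCS1 and RASD1, from −3.02 to −3.51. Their untreated differences ran from −0.34 to 0.42, and none was called without TRAIL by limma. On the higher side they were HACD3, PCGF6, RWDD2B, IDH3A, RBMS1, SLC71A2, the deadenylase CNOT7 and MSMO1, from 2.15 to 2.45, and 1 of the 8, MSMO1, was called without TRAIL. RWDD2B was at 5.55, 5.04 and 5.83 in parental cells with TRAIL, 7.71, 7.68 and 7.64 in TTR cells with TRAIL and 8.14 to 8.53 in all 6 untreated arrays. CNOT7 was at 6.82, 5.79 and 7.09 against 8.25, 8.20 and 8.35 (1.70 ± 0.22), and was at −0.53 without TRAIL, which did not pass (adjusted p = 0.191, limma).

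A smaller set was called in opposite directions in the 2 settings, 151 genes, of which 130 were higher in TTR cells with TRAIL and lower without. Of the 639 genes called lower without TRAIL, 372 lay in the group of highest level. With TRAIL 3645 of all genes there were called higher (59.4%) and 1054 lower. The part of level in the split of the 151 genes was not tested. Of the 6 with the smallest p, PLS1, an actin bundler, was at 4.77, 4.58 and 4.86 in parental and 6.22, 6.12 and 6.17 in TTR cells with TRAIL (1.43 ± 0.10), and −0.35 without. The kinase STK38L (1.19 and −0.37), AHCYL2 (1.20 and −0.36) and GTF2H3, of the general transcription factor TFIIH (1.28 and −0.43), had the same signs. SAT1, which acetylates polyamines, was at 10.54, 10.61 and 10.56 against 8.89, 9.03 and 8.93 (−1.62 ± 0.11), and 0.40 without TRAIL. EPM2AIP1 was at −1.39 ± 0.10 and 0.36. The untreated differences of these 6 genes lay between −0.43 and 0.40 and had adjusted p of 0.0208 to 0.0453 by limma.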

How the data were processed

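Log2 expression values of 33252 array features in 12 samples were deposited by the authors, who made them with Affymetrix Power Tools and the RMA method, per the submitters' processing notes. RMA summarises the probes of a feature on the log2 scale. The medians of the deposited arrays differ. The settings of RMA and the versions were not given in the sources used here. The labels' protocols describe biotinylated cRNA from Trizol-extracted total RNA. The files hold no detection measure, so low levels can be background, and precision is set by the number of arrays.

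Features naming 1 gene (19460) gave 18417 genes, with the feature of highest mean level kept for 769 genes that had several. Features naming several genes (1754) or none (12038) were left out, and 19429 gene IDs matched RefSeq GRCh38.p14. limma 3.58.1 in R 4.3.3 fitted 1 mean per group over the 12 arrays (8 residual and 7.87 prior degrees of freedom), with no block. Contrasts were TTR minus parental with TRAIL, without TRAIL, and their difference, each adjusted by Benjamini-Hochberg over 18417 genes. The code was tested on simulated data. No 2 arrays held identical values. Promoters, 250 bases before RefSeq starts, were searched on both strands, and 236 of 304 named genes had one. Plots were made in Python 3.11.15 by matplotlib 3.10.9.

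Genes were named by rule: the 15 largest differences each way among called genes with no overlap of arrays (leaving out small RNAs, histones, olfactory receptors and unnamed loci), the 8 largest each way called with and without TRAIL and not in their difference, the 6 of smallest p called in opposite directions, the 8 largest each way by that difference, up to 4 of smallest p in each of 43 gene lists, and the TRAIL receptor genes with SLC26A2. The 8 by that difference were ranked with the same groups left out as for the 15. Other names were chosen after their values were seen. The comparison, the rule and the lists were chosen with earlier results of these data known. Alternatives were median centring, quantile normalization, array weights, averaging a gene's features, every feature, no low genes, a fit of the 2 groups alone, a replicate block, a 2-fold minimum, and each array left out. Same-numbered arrays of the lines under TRAIL had deviations correlated at 0.104, −0.007 and 0.142.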

Additional observations from a re-analysis of the deposited data

Results flagged for a closer look

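The TTR minus parental difference itself differed between the settings with and without TRAIL for 6852 of 18417 genes (limma's test of the difference of differences, adjusted over all genes). Genes were named by the size of this change with small RNAs and histones left out. Among them, the difference was lower with TRAIL than without by these log2 amounts: HSPA2 −3.51, GADD45G −3.50, SNAI1 −3.44 and RGS2 −3.36. RNF151 (−3.22), RASD1 (−3.16), FBXO48 (−3.11) and SOCS1 (−3.02) followed. It was higher with TRAIL for HACD3 by 2.45, RWDD2B by 2.34, PCGF6 by 2.33, IDH3A by 2.31, RBMS1 by 2.28, SLC71A2 by 2.27, CNOT7 by 2.23 and MSMO1 by 2.15. The genes called in opposite directions in the settings differed by −2.02 for SAT1, −1.75 for EPM2AIP1, 1.78 for PLS1, 1.71 for GTF2H3, 1.57 for AHCYL2 and 1.56 for STK38L.

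Of 12038 features that name no gene, which entered no comparison above, 4420 were called between the lines with TRAIL (36.7%), 1133 higher and 3287 lower in TTR cells, against 124 without TRAIL (1.03%). With 3 arrays per group, no array was tested for standing apart from its group.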

How the results depend on the processing

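No named gene that was called changed direction in any alternative run. Of 304 named genes 256 kept direction and call in all of up to 20 alternatives, 35 lost the call in at least 1, and 13 gained it. With TRAIL the 10017 genes became 15367 over every feature, which tests more features (6584 higher and 8783 lower, or 42.8% higher against 51.6%), and 2430 at 2-fold or more, and 8772 to 10152 when 1 array was left out. Without TRAIL the 1310 genes became 2386 with array weights, 109 at 2-fold or more, and 782 to 1553 with 1 array left out. The lowest of these came without TTR replicate 2 (782), Parental replicate 1 (807) and Parental replicate 2 (829). The 6852 genes of the difference of differences became 2099 at 2-fold or more, and 6008 to 6912 with 1 array left out. The 856 genes shared by both settings became 1437 with array weights and 533 to 1006 with 1 array left out, lowest without TTR replicate 2 (533) and Parental replicate 1 (547). The causes were not tested beyond what each alternative does by construction.

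With the replicate block, 10384 genes were called with TRAIL over all 12 arrays (5333 higher and 5051 lower) and 9799 in the 2 groups alone, 1672 and 1697 without TRAIL, 7276 for the difference of differences, and 1098 and 1083 in both settings. The replicate numbers were not taken to pair the arrays of the lines under TRAIL, since 1 of the 3 correlations was below 0 and not every array correlated best with its own number. Without TRAIL the lines' same-numbered arrays correlated at 0.095, −0.033 and 0.373. Within a line, with against without TRAIL, every array correlated best with its own number, at 0.322, 0.146 and 0.395 in TTR cells and 0.107, 0.056 and 0.059 in parental cells. That is a hint of pairing from the data, and it bears on the difference of differences, whose count rose from 6852 to 7276 with the block. Each number carries a code shared by the 4 groups, whose meaning the labels do not give.

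Median centring and quantile normalization moved the split between higher and lower genes as given above, and calls of genes with small differences changed with them. The number of arrays, 3 per group, and the lack of a detection measure limit what low levels can show.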
